A study of Homo sapiens with 12 samples.

Results

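The 39 genes described here encode the enzymes of glycolysis, the carriers that bring glucose into a cell and lactate out of it, and proteins known to be induced by low oxygen, with the oxygen-sensing machinery itself. They were picked by symbol, each of the 39 symbols having 1 gene identifier among the 60675 genes of the deposited count tables. RNA-seq counts came from 2 triple-negative breast cancer cell lines, HCC1187 and MDA-MB-468, transfected for 48 h with shRNA constructs labelled sh-SOX9-AS1, against the long non-coding RNA gene SOX9-AS1, or with sh-LacZ, a control hairpin against a bacterial gene. There were 4 groups of 3 libraries: HCC1187 with sh-SOX9-AS1 (S10 to S12), HCC1187 with sh-LacZ (S7 to S9), MDA-MB-468 with sh-SOX9-AS1 (S4 to S6) and MDA-MB-468 with sh-LacZ (S1 to S3). Both lines were kept with 10% fetal bovine serum and 5% CO2, HCC1187 in RPMI-1640 and MDA-MB-468 in DMEM. The oxygen level of the cultures, the hairpin sequences and whether a group's libraries came from separate cultures are not given in the labels, so p-values measure the spread between these libraries, which may be technical.

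Of the 3 lanes of each library only the first was used, so all counts and levels given here come from 1 lane. Totals of that lane ran from 6026376 to 10160040 counts. SOX9-AS1, the targeted RNA, had 1.16, 0.697 and 0.796 counts scaled to library size (CPM) in HCC1187 knockdown libraries and 2.32, 1.40 and 1.74 CPM in the controls (log2 change -1.08 ± 0.36, adjusted p = 0.0349, edgeR). There SOX9-AS1 rests on only 8, 5 and 9 counts in knockdown libraries and 24, 13 and 17 counts in controls. In MDA-MB-468 it had 5.54, 5.03 and 5.57 CPM in knockdown libraries and 6.04, 7.28 and 6.54 CPM in controls, a difference that did not pass (log2 change -0.30 ± 0.20, adjusted p = 0.417; 0.274 without S4). Library S4, placed in the sh-SOX9-AS1 group by its column name, stands apart. Its levels over all genes were closer to the 3 controls of its line (Pearson's r of log2 CPM from 0.985 to 0.993) than to its fellow knockdown libraries (0.963 to S5, 0.958 to S6), which were alike (0.993). Knockdown columns carry the word BLANCO, unexplained in the labels, and their names match the description shared by the sh-SOX9-AS1 samples. The authors' phenotype tables, which give the shRNA, list the other 11 of the 12 libraries and not S4. The group of S4 thus rests on the match of names alone. MDA-MB-468 was therefore compared with and without S4. The labels call both lines basal-like. MDA-MB-468 controls had all 12 basal breast markers looked at above 1 CPM on average, but HCC1187 controls had 6 of them (KRT5, KRT14, KRT6A, KRT6B, KRT16 and TP63) under 1 CPM. Summed over the 12 markers, knockdown libraries had 1299 to 1428 CPM and controls 1594 to 1823 CPM in HCC1187, where 3 of 6 tested fell; knockdown libraries had 6867 to 9112 CPM and controls 8914 to 9023 CPM in MDA-MB-468, where 7 fell and 3 rose without S4. Of the luminal and receptor markers 4 of 7 tested fell in HCC1187, with sums of 440.1 to 472 CPM in knockdown libraries and 506 to 551 CPM in controls. In MDA-MB-468 2 of 7 rose and 2 fell without S4. Of all genes 9.78% rose and 13.1% fell in HCC1187, and 20.0% rose and 20.7% fell in MDA-MB-468 without S4 (edgeR, adjusted p under 0.05). The part of these marker changes in the results below was not tested.

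Glycolysis turns glucose into pyruvate in the cytosol, and lactate dehydrogenase can reduce the pyruvate to lactate, which leaves the cell with a proton. In normal oxygen, prolyl hydroxylases of the EGLN family mark the alpha subunits of hypoxia-inducible factor (HIF), encoded by HIF1A and EPAS1, for degradation. When oxygen is short the alpha subunits persist, pair with ARNT and bind short DNA words in the control regions of many glycolytic and stress genes. Breast tumours that lack hormone receptors are known for high glycolytic activity and strong expression of these genes.

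Promoter sequences are shown for the members whose knockdown change differed between the 2 lines, as described further on, and for which RefSeq (GRCh38.p14) windows of 300 bases, from 250 before a gene's start to 50 after it, were at hand. They are PFKFB4 (chr3:48556754-48557053, minus strand), PGK1 (chrX:78103998-78104297, plus strand), ENO1 (chr1:8878637-8878936, minus strand), LDHA (chr11:18394313-18394612, plus strand, the one of its 2 windows with more matches) and P4HA1 (chr10:73096817-73097116, minus strand). Each is written 5′ to 3′ on the gene's strand. Capitals mark the words ACGTG and GCGTG, the core that HIF is known to bind, on either strand, so CACGT and CACGC are the same words read on the other strand, and CACGTG holds ACGTG on both strands.
PFKFB4: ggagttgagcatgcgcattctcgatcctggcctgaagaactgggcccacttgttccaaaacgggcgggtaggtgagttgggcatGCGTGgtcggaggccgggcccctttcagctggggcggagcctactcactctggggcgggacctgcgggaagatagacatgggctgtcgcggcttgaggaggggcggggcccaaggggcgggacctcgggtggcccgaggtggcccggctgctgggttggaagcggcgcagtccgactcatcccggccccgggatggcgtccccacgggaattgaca
PGK1: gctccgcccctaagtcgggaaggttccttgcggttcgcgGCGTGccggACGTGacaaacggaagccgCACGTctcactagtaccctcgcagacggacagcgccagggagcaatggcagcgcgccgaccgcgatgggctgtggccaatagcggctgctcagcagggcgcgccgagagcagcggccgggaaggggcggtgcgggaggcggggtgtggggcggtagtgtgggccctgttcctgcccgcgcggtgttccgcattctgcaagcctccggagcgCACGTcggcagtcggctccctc
ENO1: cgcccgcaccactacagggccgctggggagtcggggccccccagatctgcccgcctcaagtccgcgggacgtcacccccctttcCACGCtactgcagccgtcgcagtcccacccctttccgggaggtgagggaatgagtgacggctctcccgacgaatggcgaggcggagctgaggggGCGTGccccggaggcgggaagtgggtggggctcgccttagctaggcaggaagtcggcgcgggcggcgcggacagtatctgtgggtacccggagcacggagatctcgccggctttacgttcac
LDHA: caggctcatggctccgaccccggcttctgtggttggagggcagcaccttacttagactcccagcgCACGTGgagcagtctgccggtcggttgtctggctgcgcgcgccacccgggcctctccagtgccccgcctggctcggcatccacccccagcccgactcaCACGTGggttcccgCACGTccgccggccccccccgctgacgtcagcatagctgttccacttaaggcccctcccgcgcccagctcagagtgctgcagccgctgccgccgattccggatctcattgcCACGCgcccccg
P4HA1: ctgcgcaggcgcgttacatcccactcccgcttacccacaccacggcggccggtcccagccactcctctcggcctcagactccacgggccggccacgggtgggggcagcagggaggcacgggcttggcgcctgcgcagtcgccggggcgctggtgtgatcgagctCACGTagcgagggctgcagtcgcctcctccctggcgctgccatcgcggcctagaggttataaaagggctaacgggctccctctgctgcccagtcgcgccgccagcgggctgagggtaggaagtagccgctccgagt
The LDHA window holds 6 matches, PGK1 4, ENO1 2, and PFKFB4 and P4HA1 1 each. Over all 61 windows of the 34 members that had one, 42 held a match (68.85%), against 17012 of all 35116 RefSeq windows (48.45%). A match is a run of letters and not a shown binding site. The members were chosen as glycolytic and hypoxia-induced genes, so a higher share could follow from that choice. Some genes count with several windows, and the RefSeq windows were not limited to genes expressed in these lines. A link of the changes to HIF was not tested. VEGFA and NDRG1 are the other members whose change differed between the lines.

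In HCC1187, members of the module fell with SOX9-AS1 knockdown and 0 rose. Of the 37 members tested, 11 fell at an adjusted p under 0.05 (29.7%), against 13.1% of the 14970 genes tested, and 0 rose, against 9.78% of all genes. At an unadjusted p under 0.05 (edgeR), 17 members were lower and 0 higher, beside 5304 of the 14970 genes in either direction. DESeq2 called 10 members down and 0 up, beside 2745 of 13809 genes called, 62.6% of them down. The falls were moderate, from -0.27 for the glucose carrier SLC2A1 to -0.89 for P4HA1 on the log2 scale. The log2 change was below 0 for 32 of the 37 members, with a median of -0.20, against 0.01 over all genes tested. In all, 16 members had all knockdown libraries below all controls (43.2%, against 19.1% of all genes) and 0 had all above (against 19.3%). CA9 and ANGPTL4 had too few counts in HCC1187 to be tested. In such bulk samples, fewer cells of a kind and less RNA per cell cannot be told apart.

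Among the carriers, SLC16A1, a proton-coupled lactate and pyruvate carrier, had 201, 240.2 and 244 CPM in knockdown libraries and 299.9, 320.5 and 304 CPM in controls (log2 change -0.44 ± 0.09, adjusted p = 0.000929). Every knockdown library lay below every control. SLC2A1, the widespread glucose carrier GLUT1, had 82.96, 86.3 and 78.5 CPM in knockdown libraries and 92.2, 94.3 and 109 CPM in controls (log2 change -0.27 ± 0.09, adjusted p = 0.0377). The groups did not overlap, but the call is lost without S8 (adjusted p = 0.0643), S9 (0.178) or S12 (0.159). SLC2A3, the high-affinity glucose carrier GLUT3, averaged 248 ± 58.4 CPM in knockdown libraries and 242 ± 58.4 CPM in controls (SD, n = 3 each; log2 change 0.03 ± 0.14, adjusted p = 0.916). SLC16A3, a lactate exporter, had only 3.35, 2.79 and 2.57 CPM in knockdown libraries and 3.97, 3.57 and 3.49 CPM in controls, and did not pass (log2 change -0.38 ± 0.23, adjusted p = 0.265).

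Of the 11 genes grouped here as hexose steps, 3 fell, beside 13.1% of all genes. The group runs from the trapping of glucose to the splitting of the hexose and also holds TPI1, which acts on the trioses. PFKFB3 and PFKFB4 encode the bifunctional enzymes that set the level of the fructose bisphosphate that activates phosphofructokinase. PFKFB3 had 83.7, 93.0 and 84.0 CPM in knockdown libraries and 131, 137 and 172 CPM in controls (log2 change -0.77 ± 0.10, adjusted p = 9.43e-06). PFKFB4 had 40.6, 48.8 and 53.0 CPM in knockdown libraries and 59.2, 62.6 and 72.9 CPM in controls (log2 change -0.45 ± 0.11, adjusted p = 0.00405). In both genes the 3 knockdown libraries lay below the controls, by a wide margin for PFKFB3. ALDOC, an aldolase best known from brain, had 49.6, 50.2 and 53.3 CPM in knockdown libraries and 65.5, 74.2 and 94.0 CPM in controls (log2 change -0.62 ± 0.11, adjusted p = 0.00033), again without overlap. The other hexose genes did not pass. They included both hexokinases (HK1 -0.06 ± 0.09, HK2 -0.05 ± 0.11) and the 3 phosphofructokinase subunits (PFKL 0.15 ± 0.09, PFKM -0.10 ± 0.09, PFKP 0.00 ± 0.08, log2 change ± SE). GPI, which turns glucose phosphate into fructose phosphate, had non-overlapping groups with 193, 179 and 180.1 CPM in knockdown libraries and 208, 201 and 217 CPM in controls, at adjusted p = 0.098, and passes without S10 (0.044). ALDOA (-0.16 ± 0.11) and TPI1 (0.08 ± 0.09) did not pass.

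Of the 8 genes grouped as triose steps and lactate dehydrogenase, without TPI1, 2 fell, beside 13.1% of all genes. LDHA, the muscle-type lactate dehydrogenase subunit that favours lactate formation, had 901, 1184 and 1203 CPM in knockdown libraries and 1756, 1782 and 1989 CPM in controls (log2 change -0.76 ± 0.10, adjusted p = 1.37e-05). The knockdown libraries were all under the lowest control, S10 farthest. LDHB, the heart-type subunit, averaged 67.8 ± 15.7 CPM in knockdown libraries and 64.3 ± 2.29 CPM in controls (SD, n = 3 each), with no call (log2 change 0.08 ± 0.12, adjusted p = 0.671). Per length, LDHA made up 87.6, 91.4 and 87.5% of the summed LDHA and LDHB TPM, a length-corrected level, in knockdown libraries and 92.9, 93.4 and 93.8% in controls. PGK1, one of the ATP-forming enzymes of glycolysis, had 1087, 1208 and 1294 CPM in knockdown libraries and 1370.1, 1475 and 1773 CPM in controls (log2 change -0.37 ± 0.10, adjusted p = 0.00845); the groups did not overlap, and the call is lost without S9 (adjusted p = 0.0567). ENO1, an enolase, had 2524, 2634 and 2786 CPM in knockdown libraries and 2864, 2817 and 3383 CPM in controls, without overlap but without a call (log2 change -0.20 ± 0.09, adjusted p = 0.125). GAPDH (-0.20 ± 0.11), PGAM1 (-0.07 ± 0.08), ENO2 (-0.07 ± 0.09) and PKM (-0.08 ± 0.09) did not pass. In the triose steps the fall was thus called for LDHA and PGK1, while the log2 changes of the other 6 genes lay between -0.20 and 0.08.

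The 7 intracellular hypoxia-induced genes all had log2 changes below 0, and 4 fell, beside 13.1% of all genes. P4HA1, a subunit of the enzyme that hydroxylates prolines in collagen, had 108, 167 and 157 CPM in knockdown libraries and 229, 272 and 295 CPM in controls (log2 change -0.89 ± 0.12, adjusted p = 1.56e-05). NDRG1, a stress-induced gene, had 408, 530.3 and 481 CPM in knockdown libraries and 689, 747 and 887 CPM in controls (log2 change -0.72 ± 0.10, adjusted p = 2.58e-05). Both were lower in every knockdown library than in any control. BNIP3L, a receptor for the removal of mitochondria, had 88.2, 117 and 129 CPM in knockdown libraries and 132, 161 and 148 CPM in controls (log2 change -0.41 ± 0.11, adjusted p = 0.0107), and the call is lost without S8 (adjusted p = 0.0582). ANKRD37, which encodes an ankyrin repeat protein, had 6.26, 12.5 and 12.8 CPM in knockdown libraries and 12.5, 17.1 and 27.0 CPM in controls (log2 change -0.81 ± 0.23, adjusted p = 0.0127). Its groups overlap, its call is lost without S9 (adjusted p = 0.17, log2 change -0.47) and with DESeq2 (adjusted p = 0.178), and 35.23% of its exon bases are shared with UFSP2 on the other strand. BNIP3, the relative of BNIP3L, had 164, 173 and 179 CPM in knockdown libraries and 187, 189.5 and 195 CPM in controls, without overlap or call (log2 change -0.15 ± 0.08, adjusted p = 0.186). P4HA2 (-0.15 ± 0.10) and the histone demethylase KDM3A (-0.28 ± 0.10) did not pass, though KDM3A passes without S7 (adjusted p = 0.0379) or S11 (0.014).

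The genes that sense oxygen gave no call in HCC1187, with log2 changes of -0.07 ± 0.09 for HIF1A, -0.24 ± 0.10 for EPAS1, -0.26 ± 0.16 for EGLN1 and -0.10 ± 0.10 for EGLN3. EPAS1 had 42.9, 49.9 and 44.0 CPM in knockdown libraries and 53.0, 49.9 and 56.8 CPM in controls, just without overlap (adjusted p = 0.0915, and 0.0359 without S11). CA12, a membrane carbonic anhydrase, had 18.2, 19.8 and 16.6 CPM in knockdown libraries and 23.7, 22.5 and 21.3 CPM in controls, also without overlap (adjusted p = 0.0595, and 0.0351 without S11). Neither VEGFA, the angiogenic growth factor (-0.23 ± 0.10), nor ADM, a vessel-widening peptide (-0.06 ± 0.16), passed. Only counts of RNA were measured, so these values say nothing of the HIF proteins, which are known to be set mainly by degradation.

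Single libraries weigh on these counts. S9 was the highest control for 29 of the 37 members (for 37.7% of all genes), and S10 the lowest knockdown library for 21 (40.6% of all genes). The median log2 ratio of the members to the control mean was -0.26, -0.14 and -0.19 in S10, S11 and S12, against -0.10, -0.06 and 0.15 in S7, S8 and S9. Without S9, 8 of the 11 members still fell, in a fit that called 2451 of 15196 genes. Without S10, 12 fell, the 11 among them, in a fit that called 2938 of 15179 genes. SLC16A1, PFKFB3, ALDOC, LDHA, NDRG1 and P4HA1 fell under every alternative tried. With all 12 libraries in 1 fit, SLC2A1, PFKFB4, PGK1, BNIP3L and ANKRD37 were not called (adjusted p between 0.0836 and 0.326).

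**Figure D1:**
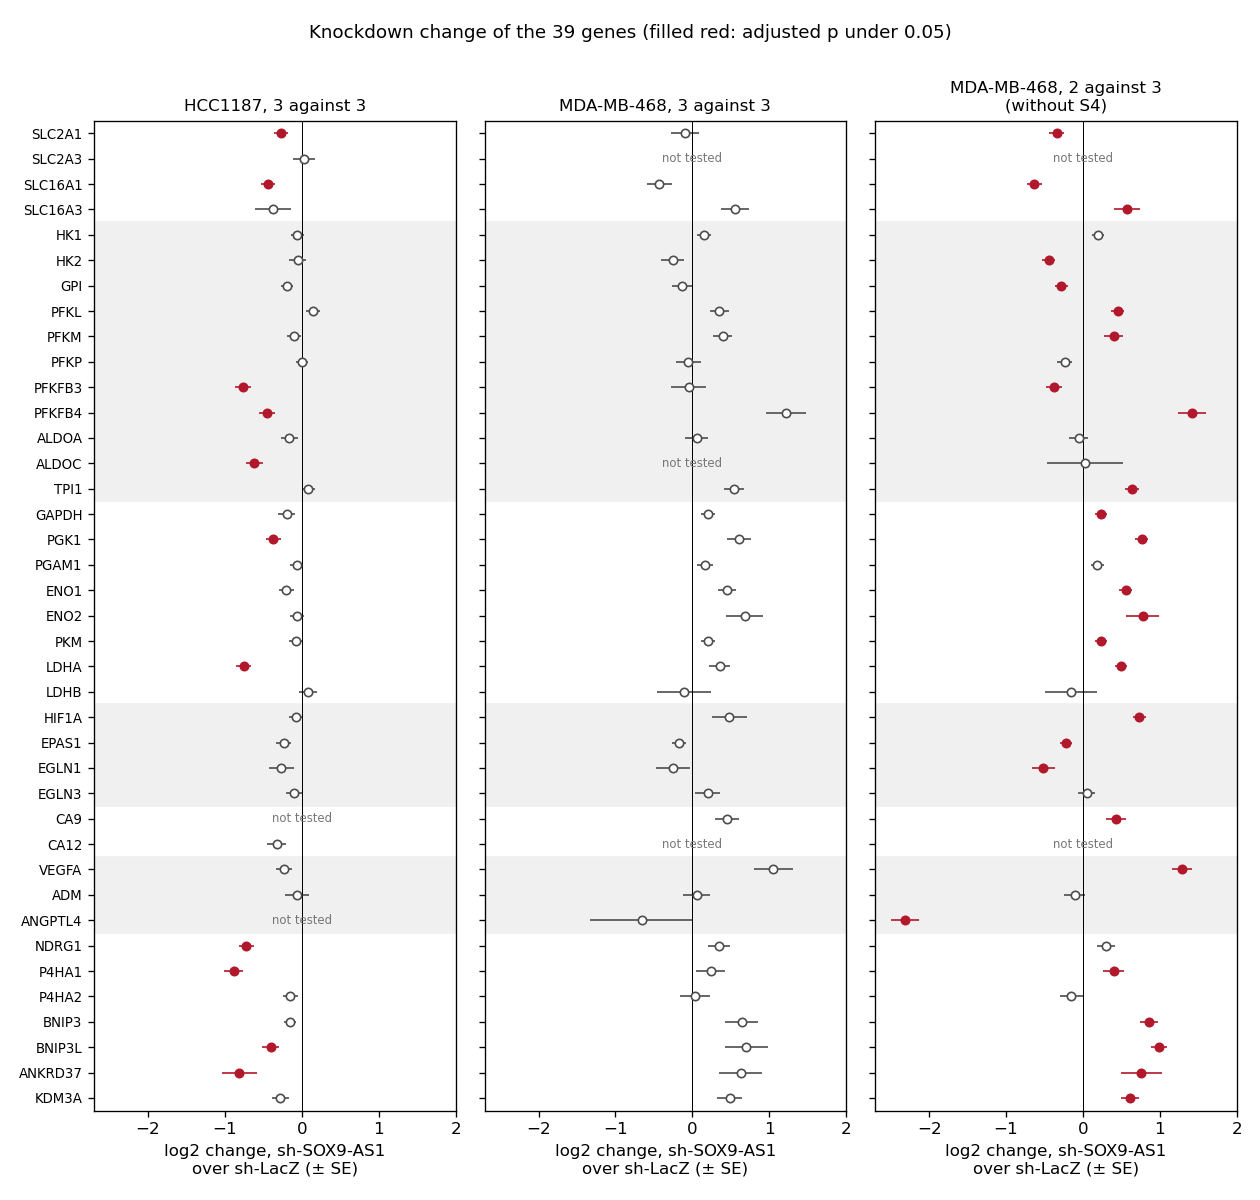
Log2 change of each of the 39 genes, sh-SOX9-AS1 over sh-LacZ, with its SE, in HCC1187 (left), MDA-MB-468 with all 6 libraries (middle) and MDA-MB-468 without S4 (right); filled red points have an edgeR adjusted p under 0.05, and shading groups genes by role. The 11 red points in HCC1187 all lie left of 0, none is red with all 6 MDA-MB-468 libraries, and without S4 19 lie right and 8 left of 0.

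In MDA-MB-468 the module's values lay mostly the other way, but none passed with all 6 libraries. Of the 36 members tested with edgeR, 0 were called in either direction, in a fit that called 0.00733% of 13638 genes (1 gene). At an unadjusted p under 0.05, 16 members were higher and 1 lower in knockdown libraries, beside 2555 genes in all, and DESeq2 called 4 members up (PFKFB4, TPI1, PGK1 and VEGFA) among the 304 genes it called. With all 6 libraries the lowest adjusted p of any member was 0.205. The log2 change was above 0 for 26 of the 36, with a median of 0.22, against -0.00089 over all genes tested. All 3 knockdown libraries, S4 included, lay above all controls for 12 members (33.3%, against 10.2% of all genes) and below them for 2 (5.56%, against 11.5%). Without S4, in a comparison of 2 libraries with 3, 19 of 37 members rose (51.4%, against 20.0% of 13947 genes) and 8 fell (21.6%, against 20.7%), so the share that rose lies above the share over all genes and the share that fell lies near it. SLC2A3 and CA12 were not tested in either fit, and ALDOC only without S4.

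Of the 8 genes of the triose steps and lactate dehydrogenase, 6 rose and 0 fell without S4, where 20.0% of all genes rose and 20.7% fell. PGK1 had 1372, 2041 and 2052 CPM in S4, S5 and S6 and 1115, 1149 and 1329.8 CPM in controls. S4 lay just above the highest control and the other knockdown libraries far above it (log2 change 0.60 ± 0.16, adjusted p = 0.205 with all 6; log2 change 0.77 ± 0.08, adjusted p = 5.22e-06 without S4). ENO1 had 2485, 3259 and 3128 CPM in knockdown libraries and 2016, 2118 and 2359 CPM in controls (all 6: log2 change 0.45 ± 0.12, adjusted p = 0.205; without S4: log2 change 0.56 ± 0.08, adjusted p = 7.59e-05). ENO2, the enolase best known from neurons, had 12.8, 17.2 and 14.9 CPM in knockdown libraries and 8.05, 7.28 and 12.7 CPM in controls (without S4: log2 change 0.78 ± 0.21, adjusted p = 0.00899). For both enolases S4 was again the lowest knockdown library and just above the controls. LDHA had 1794, 2393 and 2598 CPM in knockdown libraries and 1796, 1653 and 1843 CPM in controls, S4 lying among the controls (all 6: log2 change 0.36 ± 0.14, adjusted p = 0.228; without S4: log2 change 0.49 ± 0.08, adjusted p = 0.000158). GAPDH had 4890.2, 5282 and 5179 CPM in knockdown libraries and 4332, 4247 and 4739 CPM in controls, and PKM, which makes pyruvate, had 1677, 1865 and 1798 CPM in knockdown libraries and 1492, 1493 and 1649 CPM in controls. Both rose only slightly without S4 (0.23 and 0.24, adjusted p = 0.025 and 0.0211). PGAM1 had 140.5, 154 and 143 CPM in knockdown libraries and 122, 129 and 139 CPM in controls, without overlap and without a call in either fit (without S4: log2 change 0.19 ± 0.09, adjusted p = 0.104), and LDHB, at 4.64 ± 0.640 and 5.01 ± 2.45 CPM in knockdown and control libraries (SD, n = 3 each), had none either (log2 change -0.11 ± 0.35, adjusted p = 0.878 with all 6).

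The hexose steps, TPI1 included, went both ways without S4, with 4 genes up and 3 down of 11. Of all genes 20.0% rose and 20.7% fell there, and so small a group cannot be told from these shares. PFKFB4 had 19.5, 34.6 and 29.4 CPM in knockdown libraries and 9.51, 10.8 and 15.6 CPM in controls. Every knockdown library, S4 too, lay above every control (all 6: log2 change 1.22 ± 0.26, adjusted p = 0.205; without S4: log2 change 1.42 ± 0.18, adjusted p = 2.13e-05). Its relative PFKFB3 had 191, 114 and 102 CPM in knockdown libraries and 126, 135 and 159 CPM in controls: S4 was the highest of all 6 and S5 and S6 the lowest, and without S4 the gene fell (log2 change -0.38 ± 0.11, adjusted p = 0.0102). Per length, PFKFB4 made up 9.27, 23.3 and 22.5% of the summed PFKFB3 and PFKFB4 TPM in knockdown libraries and 7.04, 7.45 and 8.94% in controls. TPI1, which interconverts the trioses, had 415, 531 and 511 CPM in knockdown libraries and 298, 326 and 378 CPM in controls (all 6: log2 change 0.54 ± 0.13, adjusted p = 0.205; without S4: log2 change 0.64 ± 0.09, adjusted p = 7.83e-05). PFKL, the liver-type phosphofructokinase subunit, had 291, 394 and 341 CPM in knockdown libraries and 263, 262 and 279 CPM in controls, and PFKM, the muscle-type subunit, had 28.9, 27.4 and 31.9 CPM in knockdown libraries and 22.7, 22.2 and 22.0 CPM in controls. TPI1, PFKL and PFKM had no overlap between the groups with S4 kept, and PFKL (0.45 ± 0.08) and PFKM (0.40 ± 0.13) rose without it. HK2, the hexokinase induced in many tumours, had 208, 156 and 139.9 CPM in knockdown libraries and 195, 198 and 211 CPM in controls and fell without S4 (log2 change -0.45 ± 0.09, adjusted p = 0.00086). GPI, at 698, 563 and 505 CPM in knockdown libraries and 615, 629 and 696 CPM in controls, also fell without S4 (log2 change -0.28 ± 0.08, adjusted p = 0.0147). For HK2 S4 lay inside the control range, and for GPI just above it. HK1 (0.19 ± 0.08), PFKP (-0.24 ± 0.10), ALDOA (-0.06 ± 0.12) and ALDOC (0.03 ± 0.49) did not pass without S4.

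Among the carriers the lactate exporter SLC16A3 had 27.5, 30.9 and 26.5 CPM in knockdown libraries and 15.3, 18.5 and 24.1 CPM in controls, all knockdown libraries above all controls (all 6: log2 change 0.55 ± 0.18, adjusted p = 0.208; without S4: log2 change 0.57 ± 0.17, adjusted p = 0.0139). SLC16A1 had 66.8, 47.4 and 45.0 CPM in knockdown libraries and 70.7, 70.9 and 72.7 CPM in controls, all below (all 6: log2 change -0.43 ± 0.16, adjusted p = 0.22; without S4: log2 change -0.63 ± 0.10, adjusted p = 0.00013). SLC16A3 thus made up 19.6, 27.8 and 25.8% of the summed TPM of these 2 lactate carriers in knockdown libraries and 11.3, 13.4 and 16.4% in controls. SLC2A1 had 448, 321 and 261 CPM in knockdown libraries and 344, 364 and 393 CPM in controls, S4 the highest of all, and fell without S4 (log2 change -0.34 ± 0.10, adjusted p = 0.0103).

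Of the oxygen-sensing genes, HIF1A had 188, 363 and 371 CPM in knockdown libraries and 222, 238 and 199 CPM in controls. S5 and S6 were far above the controls and S4 below them, and the gene rose without S4 (log2 change 0.73 ± 0.09, adjusted p = 1.01e-05; with all 6: log2 change 0.48 ± 0.23, adjusted p = 0.291). EPAS1 had 259, 244 and 231 CPM in knockdown libraries and 282, 280.3 and 268 CPM in controls, all knockdown libraries below all controls, and fell without S4 (log2 change -0.22 ± 0.08, adjusted p = 0.034). EGLN1, the main oxygen-sensing hydroxylase of HIF, had 31.5, 22.6 and 16.4 CPM in knockdown libraries and 27.3, 29.8 and 26.8 CPM in controls and fell without S4 (log2 change -0.52 ± 0.15, adjusted p = 0.0123), while EGLN3 did not pass (0.05 ± 0.11). CA9, a membrane carbonic anhydrase widely used as a mark of hypoxia, had 438, 455 and 385 CPM in knockdown libraries and 259, 288 and 386 CPM in controls. The control S3 lay just above the knockdown library S6, and CA9 rose without S4 (log2 change 0.43 ± 0.13, adjusted p = 0.0159); 38.5% of its exon bases are shared with ARHGEF39 on the other strand.

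Of the 3 genes for secreted proteins, 1 rose and 1 fell without S4, too few to set against the 20.0% of all genes that rose and 20.7% that fell. VEGFA had 361, 694 and 662 CPM in knockdown libraries and 227, 250.3 and 350.1 CPM in controls, S4 lying just above S3 and S5 and S6 well above every control (all 6: log2 change 1.05 ± 0.25, adjusted p = 0.205; without S4: log2 change 1.29 ± 0.13, adjusted p = 2.28e-06). ANGPTL4, an inhibitor of lipoprotein lipase, had 37.6, 5.45 and 4.64 CPM in knockdown libraries and 24.7, 22.9 and 27.4 CPM in controls. S4 was the highest of the 6 libraries and S5 and S6 far below the rest, and without S4 this was the module's deepest fall (log2 change -2.31 ± 0.18, adjusted p = 1.85e-07). ADM did not pass in either fit (without S4: -0.11 ± 0.14). Of the 7 intracellular hypoxia-induced genes 5 rose without S4 and 0 fell, beside the same shares of all genes. BNIP3 had 39.5, 66.1 and 72.0 CPM in knockdown libraries and 37.9, 33.1 and 42.7 CPM in controls (log2 change 0.86 ± 0.11, adjusted p = 3.66e-05 without S4), and BNIP3L 50.1, 100.2 and 126 CPM in knockdown libraries and 56.0, 58.6 and 54.7 CPM in controls (log2 change 0.99 ± 0.11, adjusted p = 3.86e-06 without S4). In both of these mitophagy receptors S4 lay inside or below the control range. KDM3A (0.61 ± 0.11), ANKRD37 (0.76 ± 0.26) and P4HA1 (0.40 ± 0.13) also rose without S4, and NDRG1 (0.30 ± 0.12) and P4HA2 (-0.15 ± 0.15) did not pass.

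Of the 36 members tested, S4 lay above the range of the 3 controls for 24 (for 29.6% of all genes), inside it for 8 (37.9%) and below it for 4 (32.5%). For 27 of the 36 it was nearer to the control mean than to the mean of S5 and S6 on the log2 scale (for 71.2% of all genes with a count in all 6 libraries). Set against the control mean, the members had median log2 ratios of 0.20 for S4, 0.28 for S5 and 0.26 for S6, and the controls S1, S2 and S3 had -0.10, -0.05 and 0.16. The control S3 was the highest control for 31 of the 36 members (39.6% of all genes).

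**Figure D2:**
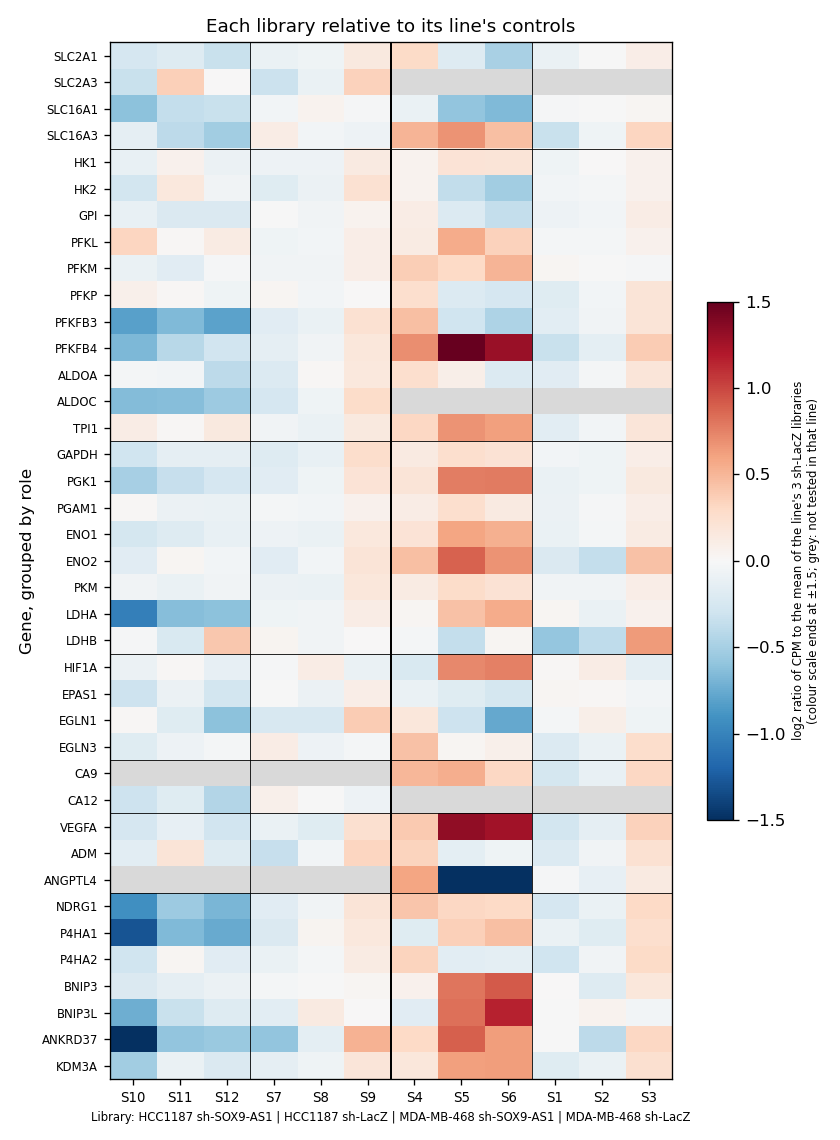
Log2 ratio of each gene's CPM in each of the 12 libraries (columns) to the mean of the line's 3 sh-LacZ libraries, with genes in rows grouped by role; red is above and blue below the control mean, and grey marks genes not tested in that line. The HCC1187 knockdown columns S10 to S12 are mostly blue, S5 and S6 hold the strongest reds, and S4 and the controls S9 and S3 are pale red in most rows.

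The knockdown change differed between the lines for 7 members, and in each the change in HCC1187 was the lower one. They were PFKFB4, PGK1, ENO1, LDHA, VEGFA, NDRG1 and P4HA1, 7 of 39 (17.9%), against 2.52% of 16328 genes, and 0 members differed in the other direction (against 1.24%; 0 at an unadjusted p under 0.05, and 0 with DESeq2). The difference, the log2 change in HCC1187 minus that in MDA-MB-468 with all 12 libraries in an edgeR interaction fit, was -1.67 ± 0.28 for PFKFB4 (adjusted p = 0.00694) and -1.11 ± 0.19 for LDHA (adjusted p = 0.00694). It was -1.05 ± 0.20 for NDRG1 (adjusted p = 0.0112) and -0.97 ± 0.20 for PGK1 (adjusted p = 0.0199). The difference was below 0 for 33 of the 39 members, with a median of -0.39, against 0.01 over all genes tested. The interaction fit shares its estimate of spread between the lines. Its coefficient of variation between libraries was 0.1245, against 0.081 in HCC1187 alone and 0.161 in MDA-MB-468 alone. It may thus understate the spread in MDA-MB-468.

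For LDHA the knockdown libraries of HCC1187 averaged 1096 ± 169 CPM, against 1842 ± 128 CPM in its controls, while those of MDA-MB-468 averaged 2262 ± 418 CPM, against 1764 ± 99.2 CPM in its controls (SD, n = 3 each). PFKFB4 averaged 47.5 ± 6.30 CPM in HCC1187 knockdown libraries and 64.9 ± 7.17 CPM in its controls; every library of HCC1187 lay above every library of MDA-MB-468, whose values are given above. NDRG1 averaged 473 ± 61.5 CPM in HCC1187 knockdown libraries and 774 ± 102 CPM in its controls, and 305 ± 13.6 CPM in MDA-MB-468 knockdown libraries and 240.4 ± 49.0 CPM in its controls. For VEGFA (log2 difference -1.27 ± 0.30, adjusted p = 0.0304) the change in HCC1187 alone did not pass, and the MDA-MB-468 knockdown libraries spread widely. ENO1 (log2 difference -0.64 ± 0.16, adjusted p = 0.0373) and P4HA1 (log2 difference -1.12 ± 0.26, adjusted p = 0.0288) complete the 7.

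These calls differ in how far they hold. PFKFB4 and LDHA passed in every alternative, with adjusted p up to 0.0334 when single libraries were left out, and NDRG1 in all but the threshold of 0.01. PGK1 is lost without S1, S2, S5, S9 or S10 (adjusted p between 0.0593 and 0.0668). P4HA1 is lost without S1, S2, S5, S6, S8, S9, S10 or S12 (between 0.0516 and 0.093), and ENO1 (between 0.0581 and 0.101) and VEGFA (between 0.0527 and 0.0942) without any one of the 12 except S3 or S4. Leaving out S4 raised the count to 17 of 39 members (43.6%, against 13.2% of 16807 genes), all lower in HCC1187 and the 7 among them.

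The knockdown changes of the 2 lines can be set side by side, since the lines share no control libraries. Of 34 members tested in both lines with all libraries, 23 had log2 changes below 0 in HCC1187 and above 0 in MDA-MB-468, 7 were below 0 in both, 2 above 0 in both, and 2 above 0 in HCC1187 and below 0 in MDA-MB-468. Of the 11 members that fell in HCC1187, 6 rose in MDA-MB-468 without S4 (PFKFB4, PGK1, LDHA, P4HA1, BNIP3L and ANKRD37), 3 fell there too (SLC2A1, SLC16A1 and PFKFB3) and 2 had no call (ALDOC and NDRG1). Of all genes 20.0% rose and 20.7% fell in MDA-MB-468 without S4. Such counts of signs and calls across the lines were not worked out over all genes, so whether opposite changes are particular to the members cannot be told. SLC16A1 gave nearly the same value in both lines (log2 change -0.44 ± 0.09 in HCC1187 and -0.43 ± 0.16 in MDA-MB-468 with all 6; log2 difference -0.000680 ± 0.20). Summed over the 39 genes, the module took up 1.68, 1.79 and 1.82% of the counts in HCC1187 knockdown libraries and 1.87, 1.93 and 2.23% in its controls, and 1.61, 1.86 and 1.79% in MDA-MB-468 knockdown libraries and 1.38, 1.40 and 1.56% in its controls. The groups did not overlap in either line, lower with knockdown in HCC1187 and higher in MDA-MB-468, where S4 (1.61%) lay just above S3 (1.56%). Abundant genes weigh most in this sum. The 8 genes of the triose steps and lactate dehydrogenase alone took up 1.19, 1.26 and 1.30% in HCC1187 knockdown libraries and 1.33, 1.37 and 1.61% in its controls. In MDA-MB-468 they took up 1.13, 1.36 and 1.33% in knockdown libraries and 0.99, 0.99 and 1.10% in controls. GAPDH, ENO1 and PKM among them had no call in HCC1187.

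**Figure D3:**
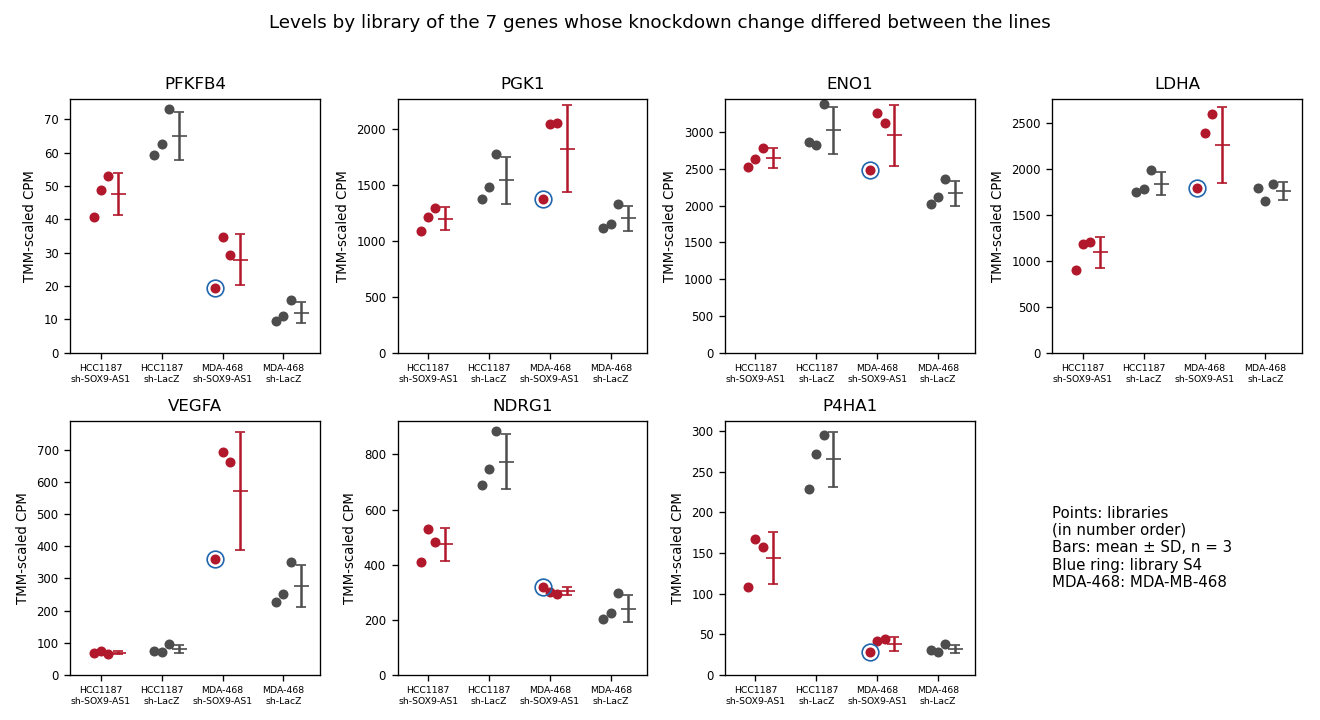
CPM scaled by TMM, a factor that evens out library composition, in each of the 12 libraries (points) for the 7 genes whose knockdown change differed between the lines, with group means ± SD (n = 3) and S4 ringed in blue; each vertical axis starts at 0. In HCC1187 the knockdown points lie below the control points except for overlapping VEGFA, and in MDA-MB-468 S5 and S6 lie above the controls for all but NDRG1, where S6 lies level with S3.

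Between HCC1187 and MDA-MB-468 controls, 19 of 39 members were higher in HCC1187 (48.7%, against 43.6% of 15592 genes) and 14 lower (35.9%, against 40.4%), shares near those of all genes; the line, its medium and its count table cannot be told apart. The 5 highest members per length were GAPDH, ENO1, TPI1, LDHA and PGK1 in HCC1187 (from 8398 ± 1379.6 down to 1189.5 ± 156 TPM) and GAPDH, ENO1, LDHA, PGK1 and CA9 in MDA-MB-468 (from 5785 ± 265 down to 603 ± 123 TPM; SD, n = 3).

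Glucose entry differed by carrier. SLC2A3 had 194, 225 and 307 CPM in HCC1187 controls and 0.112, 0.549 and 2.82 CPM in MDA-MB-468 controls, where it rests on 1, 4 and 22 counts (log2 difference 7.74 ± 0.28, HCC1187 over MDA-MB-468, a value that depends on how so few counts are treated). SLC2A1 had 92.2, 94.3 and 109 CPM in HCC1187 controls and 344, 364 and 393 CPM in MDA-MB-468 controls (log2 difference -1.88 ± 0.08, adjusted p = 4.33e-15). SLC2A3 therefore made up 60.5, 63.4 and 67.1% of the TPM of the 2 carriers in HCC1187 controls and at most 0.520% in MDA-MB-468 controls. The lactate carriers split too: SLC16A1 was higher in HCC1187 (299.9, 320.5 and 304 CPM, and 70.7, 70.9 and 72.7 CPM in MDA-MB-468 controls; log2 difference 2.12 ± 0.07). SLC16A3 was lower there (3.97, 3.57 and 3.49 CPM, and 15.3, 18.5 and 24.1 CPM in MDA-MB-468 controls; log2 difference -2.37 ± 0.19).

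Of the 19 genes of the hexose and triose steps, 9 were higher in HCC1187 controls, 5 lower and 5 had no call; of 18 other glycolytic isoenzymes and carriers tested, 9 were higher and 5 lower. ALDOC had 65.5, 74.2 and 94.0 CPM in HCC1187 controls and 1.34, 0.824 and 2.31 CPM in MDA-MB-468 controls (log2 difference 5.70 ± 0.21, adjusted p = 1.88e-16), and ENO2 had 217, 235 and 277 CPM in HCC1187 controls and 8.05, 7.28 and 12.7 CPM in MDA-MB-468 controls (log2 difference 4.71 ± 0.14, adjusted p = 5.38e-18). LDHB had 66.3, 61.8 and 64.6 CPM in HCC1187 controls and 3.36, 3.84 and 7.82 CPM in MDA-MB-468 controls (log2 difference 3.70 ± 0.17, adjusted p = 1.35e-14), while LDHA did not pass (log2 difference 0.07 ± 0.08, adjusted p = 0.379). The levels of ALDOA and LDHB are uncertain: 42.31% of the exon bases of ALDOA are shared with AC093512.2 and 33.42% of those of LDHB with AC010197.2 on the same strand, and the sources used here do not say how shared reads were counted. PFKM (2.24 ± 0.09), PFKFB4 (2.45 ± 0.14), TPI1 (1.74 ± 0.09), PGAM1 (1.74 ± 0.08), ENO1 (0.49 ± 0.09) and PGK1 (0.37 ± 0.09) were higher in HCC1187. GPI (-1.62 ± 0.07), PFKL (-0.49 ± 0.07) and HK1 (-0.38 ± 0.08) were lower there. PFKP (-0.23 ± 0.08) and PKM (-0.18 ± 0.08) were lower by little; with library totals as the only scaling, which moved the median of all genes from 0.06 to 0.29, their sign turned, and both calls are lost without S3 (adjusted p = 0.0943 and 0.094) or S8 (0.0555 and 0.212), that of PKM also without S7 (0.197). HK2, PFKFB3, ALDOA, GAPDH and LDHA did not pass, but with library totals only all 5 were higher in HCC1187 (adjusted p between 0.000356 and 0.00585) and HK1 was no longer called (0.058). ALDOA was also higher in HCC1187 without S3 (adjusted p = 0.0253) and GAPDH with no filter on low counts (0.0398).

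Of the hypoxia-induced genes, all 7 intracellular ones were higher in HCC1187, from 0.99 for P4HA2 to 3.06 for P4HA1 on the log2 scale. P4HA1 had 229, 272 and 295 CPM in HCC1187 controls and 29.9, 28.2 and 37.9 CPM in MDA-MB-468 controls, and BNIP3 had 187, 189.5 and 195 CPM in HCC1187 controls and 37.9, 33.1 and 42.7 CPM in MDA-MB-468 controls (log2 difference 2.34 ± 0.09). The 3 genes for secreted proteins were all lower in HCC1187: VEGFA had 74.4, 70.6 and 94.4 CPM there and 227, 250.3 and 350.1 CPM in MDA-MB-468 controls (log2 difference -1.78 ± 0.13, adjusted p = 2.37e-11), ADM differed by -0.89 ± 0.15 and ANGPTL4 by -5.16 ± 0.25. Both groups are small, and of 43 other hypoxia-induced genes 24 were higher and 17 lower in HCC1187. The carbonic anhydrases were split between the lines. CA9 had 3, 1 and 12 counts in HCC1187 controls and 2314, 2096 and 3013 counts in MDA-MB-468 controls, and CA12 had 23.7, 22.5 and 21.3 CPM in HCC1187 controls and 0.783, 0.687 and 0.897 CPM in MDA-MB-468 controls (log2 difference 4.82 ± 0.22, adjusted p = 8.4e-15). HIF1A (-0.57 ± 0.08), EPAS1 (-2.37 ± 0.08) and EGLN3 (-2.72 ± 0.11) were lower in HCC1187, and EGLN1 passed only without S9 (adjusted p = 0.0389). EPAS1 made up 20.4, 18.2 and 22.6% of the TPM of the 2 HIF alpha subunits in HCC1187 controls and 47.3, 45.4 and 48.7% in MDA-MB-468 controls.

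**Figure D4:**
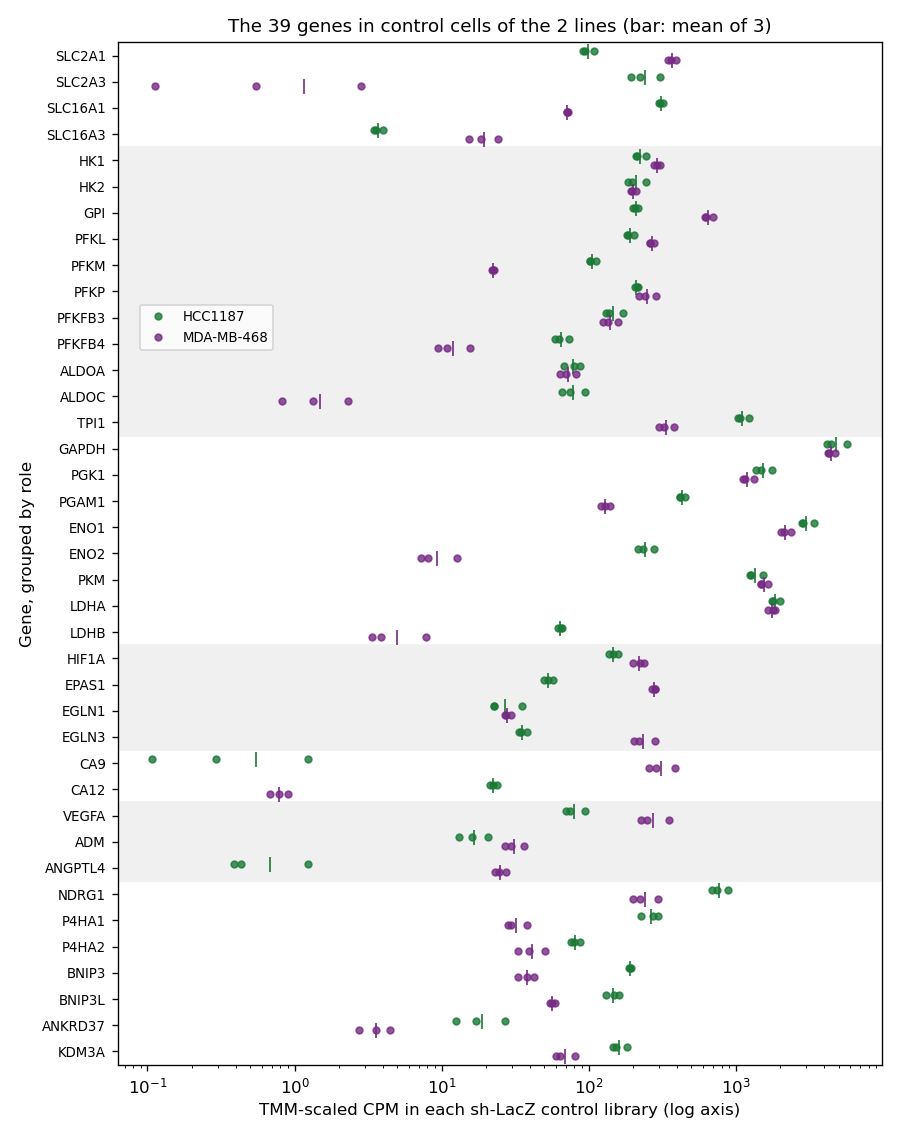
TMM-scaled CPM of the 39 genes in each sh-LacZ library of HCC1187 (green) and MDA-MB-468 (purple), on a log axis, with the mean of 3 as a bar; CPM is not corrected for length, so only the lines, not the genes, should be compared. Among the widest gaps are those of CA9, SLC2A3, ALDOC and ANGPTL4, while HK2, PFKFB3, ALDOA and EGLN1 overlap.

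Pathway genes outside the module were read from 5 lists, chosen, like the module, with earlier results of these data known. Of 42 other hypoxia-induced genes tested in HCC1187, 19 fell, 1 rose and 22 did not pass, beside 13.1% of all genes that fell and 9.78% that rose, with a median log2 change of -0.24. INSIG2, which holds back sterol synthesis, had 20.2, 24.1 and 27.3 CPM in knockdown libraries and 53.1, 54.2 and 54.8 CPM in controls (log2 change -1.17 ± 0.11, adjusted p = 1.2e-07), and the haem-degrading HMOX1 42.1, 33.2 and 38.9 CPM in knockdown libraries and 101, 79.3 and 72.4 CPM in controls (log2 change -1.16 ± 0.12, adjusted p = 3.04e-07). ZNF395 (-0.87 ± 0.11) and the chemokine receptor CXCR4 (-0.73 ± 0.10) also fell. In MDA-MB-468 0 of 40 passed with all 6 libraries (median 0.19), and without S4 16 rose and 6 fell (20.0% and 20.7% of all genes). DDIT4, an inhibitor of mTOR signalling, had 119, 668 and 618 CPM in knockdown libraries and 58.2, 66.2 and 105 CPM in controls (log2 change 3.07 ± 0.16, adjusted p = 2.13e-09 without S4), and the vessel-constricting peptide gene EDN1 58.2, 21.0 and 22.0 CPM in knockdown libraries and 70.5, 66.9 and 65.5 CPM in controls (log2 change -1.66 ± 0.11, adjusted p = 3.14e-08 without S4). The difference between the lines was called for 11 of 43 such genes, each lower in HCC1187 (beside 2.52% of all genes, and 1.24% higher), among them ZNF395 (-1.13 ± 0.18), INSIG2 (-1.36 ± 0.23), DDIT4 (-3.32 ± 0.60) and the collagen cross-linking enzyme LOX (-1.15 ± 0.24).

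The other 4 lists hold metabolic enzymes and HIF partners. In HCC1187, of 17 other glycolytic isoenzymes and carriers 3 rose and 2 fell, among them PFKFB2 (-0.44 ± 0.11), another relative of PFKFB3, PGM2 (-0.39 ± 0.11), BPGM, which makes the bisphosphoglycerate of red cells (0.36 ± 0.10), and LDHC, a lactate dehydrogenase subunit best known from testis (0.83 ± 0.28). Of 19 genes of the branches from hexose phosphates 2 rose and 2 fell, with GFPT1 of the hexosamine branch (-0.48 ± 0.09) and RPE of the pentose phosphate pathway (-0.51 ± 0.10) lower, and PGLS of the same pathway (0.35 ± 0.11) and UGP2 (0.26 ± 0.09) higher. Of 14 genes that govern pyruvate entry into mitochondria 1 rose and 3 fell, with PDP1, a phosphatase that activates pyruvate dehydrogenase, at 17.5, 27.6 and 24.7 CPM in knockdown libraries and 36.3, 40.5 and 42.8 CPM in controls (log2 change -0.78 ± 0.13, adjusted p = 0.000164); the riser was the pyruvate carboxylase gene PC (0.49 ± 0.16). Of 13 HIF partners and degradation factors 1 rose and 5 fell, among them CITED2, which competes with HIF for a coactivator (-0.79 ± 0.12), and the riser was ELOC, which encodes elongin C (0.35 ± 0.10). Of all genes 9.78% rose and 13.1% fell. In MDA-MB-468 0 genes of these 4 lists passed with all 6 libraries. Without S4, where 20.0% of all genes rose and 20.7% fell, 9 of the 14 pyruvate entry genes rose and 1 fell: the pyruvate dehydrogenase subunit PDHB (0.83 ± 0.09), PC (0.80 ± 0.09) and the hypoxia-induced kinase PDK1 (0.80 ± 0.10) rose and PDK4 fell (-2.26 ± 0.32). The HIF partners gave 0 rises and 3 falls of 11 without S4, with the coactivator genes CREBBP (-0.75 ± 0.09) and EP300 (-0.60 ± 0.09) among the falls. Without S4 the other glycolytic isoenzymes gave 6 rises and 5 falls of 16, and the branches from hexose phosphates 5 rises and 6 falls of 19.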

How the data were processed

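The authors deposited whole-number read counts per gene, in a table for each line, with gene lengths. The submitters' processing notes name Trimmomatic 0.39, HISAT2 2.1.0, featureCounts 2.0.0 and GRCh38; the sources used here do not name the annotation, the strand setting or the treatment of shared reads. Per the labels' protocols, libraries were stranded mRNA libraries (TruSeq) of paired 76 bp fragments. Column names give a group, library and lane but do not tie a library to a numbered sample. As many columns as samples were used in each group, the first lane of each library; lanes were not summed, and 24 of the 36 count columns were not used, which lowers the depth. S1 to S12 are the library numbers in the column names.

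Each comparison was fitted on all genes with edgeR 4.0.16 (R 4.3.3): filterByExpr (minimum count 10, total 15), TMM scaling, quasi-likelihood test, Benjamini-Hochberg adjustment over all genes tested, threshold 0.05. Standard errors are the log2 change over the square root of F. CPM levels use totals scaled by TMM over all 12 libraries, and TPM was worked out from the counts and deposited lengths. Shared exon bases come from GENCODE v29. Every member is accounted for, with values by library for those called or with groups that do not overlap, and up to 4 genes per other list by smallest p. The members and lists were chosen with earlier results of these data known. Alternatives were DESeq2 1.42.0, other scalings and filters, a threshold of 0.01, all 12 libraries in 1 fit, and leaving out each library. The fits were also run on simulated counts, all with the same spread and with no library standing apart. That spread was lower than in the real fits that held S4. Their coefficient of variation between libraries was 0.161 in MDA-MB-468 and 0.1245 in the interaction fit. The simulation therefore cannot speak for those 2 fits.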

Additional observations from a re-analysis of the deposited data

Results flagged for a closer look

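The knockdown change differed between HCC1187 and MDA-MB-468 by a test of the interaction of line and knockdown for 7 members. As log2 change in HCC1187 minus that in MDA-MB-468, the differences were -1.67 for PFKFB4, -0.97 for PGK1, -0.64 for ENO1, -1.11 for LDHA, -1.27 for VEGFA, -1.05 for NDRG1 and -1.12 for P4HA1 (edgeR, adjusted p between 0.00694 and 0.0373). The lines were grown in different media, so line and medium cannot be told apart in these differences. Nor was the targeted SOX9-AS1 shown to be lowered equally. Its log2 change was -1.08 ± 0.36 in HCC1187 (edgeR adjusted p = 0.0349) and -0.30 ± 0.20 in MDA-MB-468 (0.417). The difference of these 2 changes did not pass (-0.77 ± 0.38, adjusted p = 0.268). The part of unequal knockdown in the 7 differences was not tested. In MDA-MB-468 S4 was the lowest knockdown library for PFKFB4, PGK1, ENO1, LDHA, VEGFA and P4HA1 and the highest for NDRG1.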

How the results depend on the processing

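In HCC1187, 11 members fell, in a fit that called 3418 of 14970 genes. When a library was left out, 8 (without S9, 2451 of 15196 genes called) to 14 (without S11, 3407 of 15300) fell. With all 12 libraries in 1 fit 6 fell (1499 of 16328 genes called). With library totals as the only scaling 10 fell, and of all genes called 42.6% were falls, against 57.2% with TMM. In MDA-MB-468 0 members were called, in a fit that called 1 of 13638 genes. DESeq2 called 4 members up, beside 304 of 12579 genes in either direction. A fit with no filter called 11 up, beside 1441 of 26996 genes. The fit of all 12 libraries called 8 up, beside 887 of 16328 genes. Leaving out 1 library gave 0 to 27 members. The 27 (19 up, 8 down) came without S4, where 5678 of 13947 genes were called. The difference between the lines was called for 7 members, beside 613 of 16328 genes. It was called for 13 with DESeq2 (1170 of 12845 genes) and 16 with no filter (1415 of 32821). At a threshold of 0.01 it was called for 2 (86 of 16328 genes). When a library was left out, the count ran from 3, as without S2 (129 of 16793 genes), to 17 without S4 (4300 of 16807). With library totals only, 53.1% of all genes called were negative, against 67.0%. Between the controls 33 members differed; with library totals only PFKP had a log2 difference of 0.000797 and PKM of 0.0501, above 0 rather than below. The cause of these shifts was not tested. RLE scaling and a filter of CPM 1 in at least 3 libraries changed no count by over 1.5 times.

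No paired analysis was possible because the count columns carry no replicate number. A comparison of lane 1 with summed lanes was not run. With only the first lane counted, SLC2A3, ALDOC and CA12 in MDA-MB-468 and CA9, ANGPTL4 and the targeted SOX9-AS1 in HCC1187 rest on few counts.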
